A study of Mus musculus with 8 samples.

Results

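The genes described here had almost no reads in brown adipose tissue (BAT) of wild-type (WT) mice and were read in every db/db library. A gene was taken when its raw counts summed to 4 or less over the 4 WT libraries and reached 5 or more in each of the 4 db/db libraries. Of 31053 genes in the table, 60 met these limits. Of those, 5 were set aside, namely Trem2, Dusp9, Cilp and Mmp12, which the rule names, and Lmod3, a leiomodin of the skeletal sarcomere, and the remaining 55 genes are the subject of this report. Before the 5 were set aside, the rule held for 0.366% of the 16410 genes with any count. The counts that chose the genes are the WT and db/db counts themselves, so their difference between genotypes is given as a description and without a test.

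BAT was profiled by bulk RNA-seq in WT and db/db mice, 4 libraries each, to find how obesity with diabetes alters the tissue. The WT mice were C57BL6/J, the db/db mice were of the line B6.BKS(D)-Leprdb/J per the study's methods, in which the leptin receptor (Lepr) is defective, and the labels give both groups the strain C57BL6/J and an age of 8 weeks. All mice were male per the methods, which describe the lines as bought from suppliers and do not mention littermate controls, so genotype and colony of origin cannot be told apart. Per the study, each group was 4 mice, so the spread between libraries is taken as the spread between animals.

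WT libraries held 2374079 to 2615009 counts and db/db libraries 2382722 to 3240074, and levels are given as CPM, the counts scaled to library size by TMM, which is not corrected for gene length. The upper limit that a count of 0 allows, 3 counts, was 0.902 to 1.33 CPM in a single library and 0.304 CPM over the WT libraries together, for counting error only. The labels call the cells a stromal vascular fraction, but the summed level of 20 brown adipocyte markers was 9905 to 11614 CPM in WT and 4124 to 7289 CPM in db/db, so adipocyte RNA was present in every library. Lepr had 0 counts in all 8 libraries, so its transcript gives no check of the labels. The library db/db 1 stood apart from the other db/db libraries in skeletal muscle RNA, with 13280 CPM for 25 sarcomere genes against 2536 to 6140 CPM in the others and 499 to 1888 CPM in WT.

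BAT burns lipid to make heat through uncoupled respiration in brown adipocytes, and it also holds vessels, nerves, fibroblasts and resident macrophages. In obesity the brown adipocytes fill with lipid and immune cells gather around them, and macrophages that take up lipid switch on lysosomal and lipid-handling genes. Interscapular BAT lies against skeletal muscle, and brown adipocytes and muscle fibres share a developmental origin. In bulk tissue, more cells of a type and more RNA per cell cannot be told apart.

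The 55 genes fall by known function into 7 classes. These are 16 genes of immune cells and innate defence, 7 of the matrix and secreted structure, 4 of muscle, 8 of receptors, transmitters and signalling, 4 enzymes of amino acids and small molecules, 2 of the cell cycle and 14 others or little described genes. Of the 55, 53 are protein coding, and the other two are the long noncoding RNA 1700047G03Rik and the antisense gene Atcayos. They lie on 17 chromosomes. The 4 on chromosome 4, Atp6v0d2, Tmem52, Cnksr1 and Tent5b, are not neighbours of Lepr, which lies on the same chromosome, the closest being Tent5b at 31.7 Mb.

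Stretches upstream of genes that stand for the immune, matrix, transmitter and little described classes are shown to let a reader see the sequence at their starts. Each is the 250 bases before a RefSeq start site (GRCm38.p6), 5′ to 3′ on the gene's own strand. Capitals mark matches on either strand to a TATA box (TATAAA), an AP-1 site (TGANTCA), a PU.1 core (GAGGAAG) or an E-box (CAGCTG). The windows are chr7:128129300-128129549 (+) for Itgax, chr2:24336610-24336859 (+) for the most upstream start of Il1rn, chr13:92794819-92795068 (-) for Thbs4, chr10:115185023-115185272 (-) for Tph2, chr17:54299035-54299284 (-) for Slc5a7 and chrX:45090654-45090903 (+) for Prr32.
Itgax: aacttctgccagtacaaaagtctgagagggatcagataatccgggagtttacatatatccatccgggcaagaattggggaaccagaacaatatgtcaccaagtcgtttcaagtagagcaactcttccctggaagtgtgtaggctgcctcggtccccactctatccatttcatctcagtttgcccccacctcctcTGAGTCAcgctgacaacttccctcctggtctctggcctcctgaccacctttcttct
Il1rn: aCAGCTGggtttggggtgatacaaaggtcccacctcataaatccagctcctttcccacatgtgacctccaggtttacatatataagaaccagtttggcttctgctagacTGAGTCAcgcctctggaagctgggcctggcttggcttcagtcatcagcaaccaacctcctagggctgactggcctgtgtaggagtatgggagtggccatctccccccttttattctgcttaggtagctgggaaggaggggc
Thbs4: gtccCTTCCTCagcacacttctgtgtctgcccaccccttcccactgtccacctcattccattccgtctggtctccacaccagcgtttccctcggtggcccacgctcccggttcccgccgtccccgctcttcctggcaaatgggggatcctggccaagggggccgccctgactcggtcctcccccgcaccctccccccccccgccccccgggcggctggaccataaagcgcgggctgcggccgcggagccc
Tph2: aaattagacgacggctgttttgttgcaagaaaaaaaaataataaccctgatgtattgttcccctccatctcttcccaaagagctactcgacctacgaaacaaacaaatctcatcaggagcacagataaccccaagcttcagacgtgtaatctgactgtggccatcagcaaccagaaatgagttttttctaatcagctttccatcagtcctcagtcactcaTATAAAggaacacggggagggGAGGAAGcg
Slc5a7: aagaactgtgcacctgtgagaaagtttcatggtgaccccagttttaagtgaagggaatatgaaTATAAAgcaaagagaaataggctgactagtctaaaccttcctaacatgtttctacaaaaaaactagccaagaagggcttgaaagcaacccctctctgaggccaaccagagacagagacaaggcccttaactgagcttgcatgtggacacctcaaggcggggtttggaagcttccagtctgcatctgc
Prr32: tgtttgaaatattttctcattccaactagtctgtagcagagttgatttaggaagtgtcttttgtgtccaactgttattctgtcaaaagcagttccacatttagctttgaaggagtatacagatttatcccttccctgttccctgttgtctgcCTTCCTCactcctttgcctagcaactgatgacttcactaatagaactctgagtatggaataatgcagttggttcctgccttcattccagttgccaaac

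RefSeq start sites were matched for 39 of the 55 genes, with 48 windows of 300 bases that include 50 bases after the start. The AP-1 letters, bound by factors of the Fos and Jun families, occurred in 16.7% of these windows and in 7.81% of all 32851 mouse windows of that length. TATA letters occurred in 16.7% against 13.6%, the PU.1 core, bound by a factor of myeloid cells, in 14.6% against 13.6%, and the E-box in 20.8% against 16.3%. A match describes the letters only and was not tested as a site.

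Across the 55 genes the counts were few in WT and moderate in db/db. In WT, 14 to 24 of the 55 genes had any count in a given library, and no count exceeded 4. In db/db, every gene was counted in every library and the highest count was 87. The summed level of the 55 genes was 12.1, 9.28, 15.4 and 17.4 CPM in WT 1 to 4 and 488, 288, 341 and 320 CPM in db/db 1 to 4. The sum was highest in db/db 1. For each of the 55 genes every db/db library lay above every WT library by CPM, as the rule sets for the counts, and 15.3% of the 9264 genes that passed a filter on low counts were separated in this direction. The mean of db/db was 359 ± 88.5 CPM (SD, n = 4) and 316 CPM without db/db 1, against 13.6 ± 3.58 CPM in WT (SD, n = 4).

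**Figure D1:**
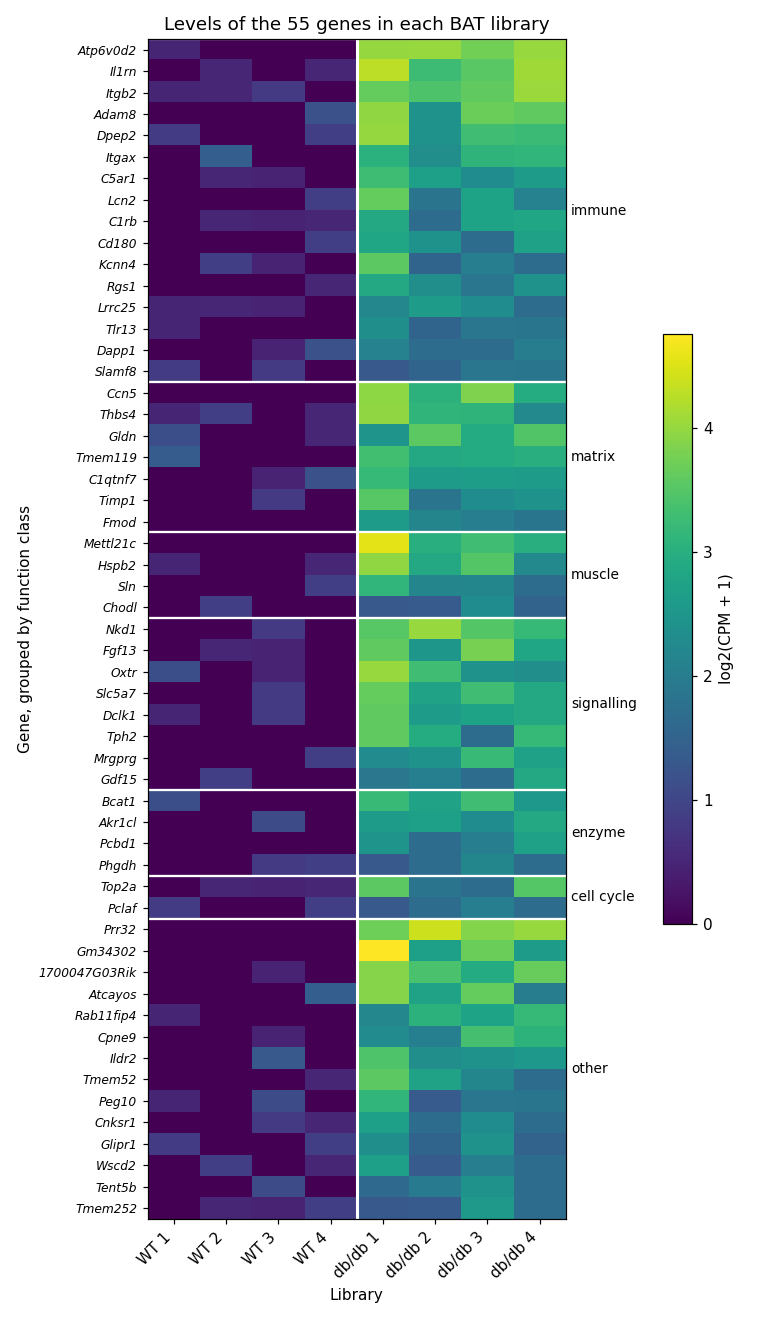
Levels of the 55 genes in each library, as log2(CPM + 1) in colour, with genes in rows grouped by class and libraries in columns. The WT columns are dark for every gene, and within db/db the brightest cells are mostly in db/db 1, which held the highest level of 33 genes.

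The WT counts were scattered. For 7 genes the WT sum was 0, for another 7 it was 1, and for 13, 11 and 17 genes it was 2, 3 and 4. In 24 genes all WT counts lay in 1 library. The 7 genes at 0 throughout WT were Prr32, Gm34302, Mettl21c, Ccn5, Tph2, Pcbd1 and Fmod. Their pooled db/db levels were 12.1 to 50.4 times the limit of 3 counts over the WT libraries. For the other 48 genes the pooled ratio of db/db to WT ran from 5.18 to 144 with a median of 21.8, and because it rests on 1 to 4 WT counts its counting interval is wide. The reverse rule, near silent in db/db and counted in every WT library, held for 1 gene, Gm32468.

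Genes of immune cells and innate defence made up the largest class. Their summed level was 144, 78.6, 97.5 and 112 CPM in db/db 1 to 4 and 4.41 ± 1.45 CPM in WT (mean, SD, n = 4). Atp6v0d2, a subunit of the lysosomal proton pump found in macrophages and osteoclasts, had 1, 0, 0 and 0 counts in WT 1 to 4 and 50, 48, 28 and 41 counts in db/db 1 to 4. It was the steadiest of the 55 genes, with 14.5 ± 1.39 CPM in db/db (SD, n = 4), a highest to lowest ratio of 1.23 and a pooled ratio to WT of 144 (95% counting interval 25.5 to 5732). The widely expressed subunit Atp6v0d1 was counted in WT at 29.8 ± 7.27 CPM and in db/db at 36.2 ± 2.31 CPM (SD, n = 4 each), a log2 difference of 0.28 ± 0.19 (SE) that did not pass the threshold (edgeR quasi-likelihood test, adjusted p = 0.299).

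Il1rn, which encodes the antagonist of the interleukin-1 receptor, had 0, 1, 0 and 1 counts in WT and 62, 27, 24 and 43 in db/db. Its level was highest in db/db 1 and db/db 4, at 18.7 and 16 CPM, and lower in db/db 2 and db/db 3, at 8.59 and 10.6 CPM. The ligand gene Il1b had 3, 4, 2 and 1 counts in WT and 0, 2, 0 and 8 in db/db. Il1b was too low to be tested.

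Integrin chains of leukocytes belong to the same class. Itgb2, the shared beta chain, had 1, 1, 2 and 0 counts in WT and 38, 31, 25 and 42 in db/db, a level of 12 ± 2.51 CPM in db/db (SD, n = 4). Itgax, an alpha chain of dendritic cells and macrophages, had 0, 4, 0 and 0 counts in WT and 24, 13, 17 and 21 in db/db. The WT reads of Itgax came from WT 2 alone. The alpha chain Itgam, which pairs with the same beta chain and is no member, was at 2.59 ± 2.08 CPM in WT and rose to 11.9 ± 6.46 CPM (SD, n = 4 each; log2 difference 2.18 ± 0.51 SE, edgeR adjusted p = 0.00399). Itgal, the alpha chain of lymphocytes, had at most 1 count in each library except db/db 1, with 7.

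Complement and pattern recognition genes were also among the 55. C5ar1, the receptor of the complement peptide C5a, had 0, 1, 1 and 0 counts in WT and 29, 17, 9 and 14 in db/db. The related receptor C3ar1, which was already counted in WT, was at 3.95 ± 0.719 CPM in WT and rose to 26.9 ± 9.43 CPM (SD, n = 4 each; log2 difference 2.76 ± 0.30 SE, edgeR adjusted p = 2.98e-06). C1rb, a copy of the complement protease gene C1ra, had 0, 1, 1 and 1 counts in WT and 21, 7, 13 and 16 in db/db. The near-identical C1ra had a log2 difference of 0.29 ± 0.31 SE (edgeR adjusted p = 0.529), and reads of the copies may have been split between them, so the level of C1rb is uncertain. Tlr13, a receptor of bacterial ribosomal RNA, had 14, 6, 6 and 7 counts in db/db against 1 over WT. Cd180, a Toll-like receptor homologue, had 20, 14, 5 and 15 against 2, and overlaps Mast4 on the other strand, which had 90 counts over WT and 129 over db/db.

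Among the rest of the class, Adam8, a metalloprotease of leukocytes, had 49, 14, 27 and 30 counts in db/db, with all 3 WT counts in WT 4. Dpep2, a membrane dipeptidase that acts on leukotrienes, had 50, 14, 20 and 23 counts in db/db against 4 over WT, and it overlaps Dus2 on the other strand. Lcn2, a secreted protein that binds bacterial siderophores, had 38, 8, 13 and 9 counts in db/db against 2 over WT. Adam8, Dpep2 and Lcn2 were all highest in db/db 1 and lowest in db/db 2. Kcnn4, a calcium-activated potassium channel, varied most of all 55 genes, with 36, 6, 7 and 6 counts in db/db and a highest to lowest ratio of 5.67. Rgs1, a regulator of G-protein signalling in leukocytes, Lrrc25, Dapp1 and Slamf8 completed the class with db/db means of 2.17 to 4.39 CPM.

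The matrix class summed to 66.5, 43.3, 46.5 and 39.8 CPM in db/db 1 to 4 and 1.83 ± 1.09 CPM in WT (SD, n = 4). Ccn5, a matricellular protein of the CCN family, had 0 counts in all WT libraries and 48, 23, 30 and 18 in db/db. Its pooled db/db level was 34.3 times the limit of 3 counts over the WT libraries. Thbs4, a thrombospondin of tendon and muscle, had 1, 2, 0 and 1 counts in WT and 49, 24, 17 and 10 in db/db. Fmod, the small proteoglycan fibromodulin that binds collagen fibrils, had 0 in WT and 17, 11, 7 and 7 in db/db. All of these were highest in db/db 1.

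Timp1, an inhibitor of matrix metalloproteinases, had 0, 0, 2 and 0 counts in WT and 35, 8, 9 and 12 in db/db, and db/db 1 stood above the other libraries. Timp1 overlaps Syn1 on the other strand, which had 0 counts in all 8 libraries. Gldn, a protein of the nodes of Ranvier, was the exception in the class, being lowest in db/db 1, with 15, 34, 15 and 27 counts. Tmem119, a membrane protein of osteoblasts and microglia, was steady across db/db at 7.28 ± 1.20 CPM (SD, n = 4), with all 4 of its WT counts in WT 1. C1qtnf7, a secreted protein with a C1q domain, had 27, 16, 12 and 14 counts in db/db against 4 over WT.

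Relatives of these matrix genes were already counted in WT, some of them with few reads. Thbs1 had 2, 5, 3 and 5 counts in WT. Ccn2 and Thbs3, with WT counts of 3, 4, 6 and 1 and of 0, 2, 3 and 5, were too low to be tested. Thbs1 rose from 1.54 ± 0.675 to 15.9 ± 6.85 CPM and Thbs2 from 4.15 ± 2.79 to 25.1 ± 10.6 CPM (SD, n = 4 each), with edgeR adjusted p of 2.43e-05 and 0.000104. Ccn1, a relative of Ccn5, was 8.95 ± 7.03 CPM in WT and 21.7 ± 15.5 CPM in db/db (SD, n = 4 each; log2 difference 1.29 ± 0.48 SE, edgeR adjusted p = 0.0562), and passed the threshold without WT 2, db/db 1 or db/db 3, at 1.89, 1.53 and 1.49. Timp2 rose from 83.0 ± 22.5 to 218 ± 83.3 CPM (SD, n = 4 each; edgeR adjusted p = 0.000162). Timp3 was 130 ± 9.90 CPM in WT and 160 ± 15.2 CPM in db/db (SD, n = 4 each), and did not pass the threshold (edgeR adjusted p = 0.0962), which it did pass, at a log2 difference of 0.34, among genes with at least 10 counts in every library.

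The muscle class held 4 genes that are not sarcomere proteins. Mettl21c, a protein lysine methyltransferase of skeletal muscle, had 0 counts in every WT library and 76, 22, 20 and 19 in db/db. Hspb2, a small heat shock protein of muscle, had 1, 0, 0 and 1 counts in WT and 49, 20, 23 and 10 in db/db. Sln, which encodes sarcolipin, an inhibitor of the sarcoplasmic reticulum calcium pump, had 2 counts over WT and 26, 11, 8 and 6 in db/db. These 3 genes were highest in db/db 1, the library with the most sarcomere RNA, and the part of muscle tissue in their levels was not tested. Chodl, a C-type lectin membrane protein, went the other way, with 5, 5, 9 and 5 counts in db/db. The class summed to 46.9, 18.5, 26.6 and 14.9 CPM in db/db 1 to 4, and its mean fell from 26.7 to 19.98 CPM when db/db 1 was left out.

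Hspb2 overlaps Cryab, the gene of another small heat shock protein, on the opposite strand, and the sources used here do not say if reads were counted by strand. Cryab had 37, 47, 45 and 54 counts in WT and 2147, 1399, 1259 and 891 in db/db (log2 difference 4.73 ± 0.22 SE, edgeR adjusted p = 1.32e-10). In CPM the db/db libraries had the same order for both genes, with 646, 445, 558 and 331 for Cryab and 14.7, 6.36, 10.2 and 3.72 for Hspb2. The sarcomere genes summed to 13280, 3649, 6140 and 2536 CPM in db/db 1 to 4, which is this order too. The part of Cryab reads in the Hspb2 counts was not tested.

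**Figure D2:**
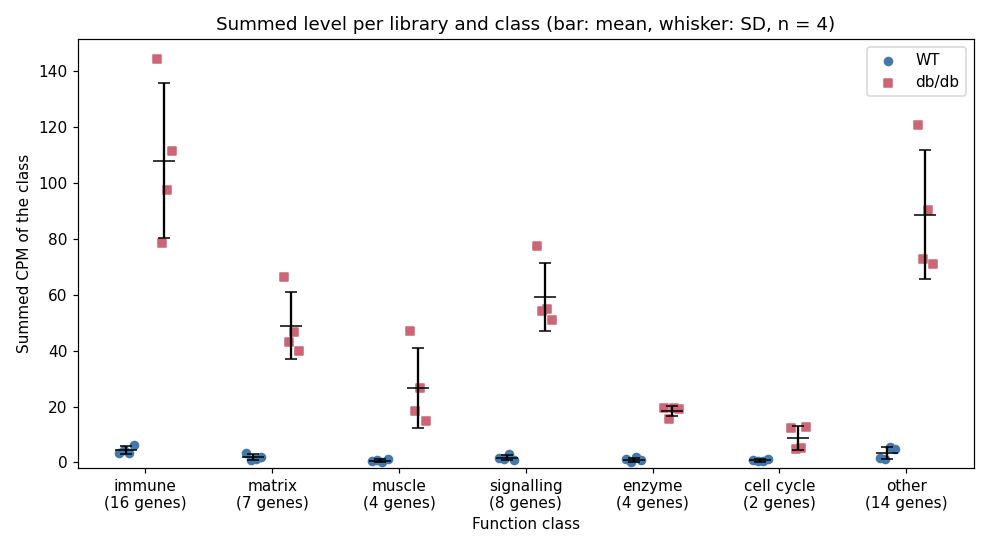
Summed CPM of each class in each library, with WT as circles, db/db as squares, and the mean with SD (n = 4) as a bar with whiskers. In the muscle class db/db 1 stood at 46.9 CPM against 14.9 to 26.6 CPM in the other db/db libraries, while the enzyme class lay between 15.6 and 19.6 CPM in all of them.

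Receptors, transmitter genes and signalling genes summed to 77.3, 54.1, 54.96 and 51 CPM in db/db 1 to 4. Nkd1, an antagonist and target of Wnt signalling, had 0, 0, 2 and 0 counts in WT and 35, 48, 23 and 22 in db/db, with its highest level in db/db 2. Oxtr, the oxytocin receptor, had 3, 0, 1 and 0 counts in WT and 51, 28, 10 and 11 in db/db. Fgf13, an intracellular FGF family protein that binds sodium channels, had 2 counts over WT and 37, 15, 29 and 16 in db/db. Oxtr was thus high in db/db 1 and 2 and Fgf13 in db/db 1 and 3, so the members of this class did not share an order of libraries.

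Genes known from neurons were also counted. Tph2, the tryptophan hydroxylase of serotonin neurons, had 0 counts in all WT libraries and 37, 21, 5 and 22 in db/db, from 2.22 CPM in db/db 3 to 11.1 CPM in db/db 1. Tph1, the hydroxylase of peripheral tissues, had at most 1 count in any library. Slc5a7, the high-affinity choline transporter of cholinergic nerve endings, had 0, 0, 2 and 0 counts in WT and 38, 18, 20 and 17 in db/db. Chat, which makes acetylcholine in such neurons, had 0 counts in all 8 libraries. Dclk1, a microtubule-binding kinase, had 3 counts over WT and 37, 16, 13 and 17 in db/db. The levels of the orphan receptor gene Mrgprg and of Gdf15, a secreted factor induced by cell stress, were 5.59 ± 2.01 and 3.61 ± 1.85 CPM in db/db (SD, n = 4).

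The enzyme class was the most even across db/db libraries in its sum, at 19.6, 15.6, 19.5 and 19.0 CPM. Bcat1, the cytosolic aminotransferase of branched-chain amino acids, had 3, 0, 0 and 0 counts in WT and 28, 18, 20 and 13 in db/db. Its mitochondrial counterpart Bcat2 was 17.6 ± 5.94 CPM in WT and 9.80 ± 4.51 CPM in db/db (SD, n = 4 each), and did not pass the threshold (edgeR adjusted p = 0.0672). Without WT 2 or without db/db 1 it passed, at log2 differences of -1.02 and -1.19. Pcbd1, a pterin dehydratase that also acts as a cofactor of transcription factors, had 0 counts in WT and 15, 7, 7 and 15 in db/db, while the paralogue Pcbd2 was 47.4 ± 4.05 and 53.3 ± 6.20 CPM in WT and db/db (SD, n = 4 each; edgeR adjusted p = 0.432).

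Phgdh, which opens the synthesis of serine, was near the edge of the rule with 0, 0, 2 and 2 counts in WT and 5, 7, 8 and 6 in db/db. Psat1, the following enzyme of that pathway, was higher in db/db with a log2 difference of 1.58 ± 0.47 SE (edgeR adjusted p = 0.0172), and this call was lost without WT 2, WT 4 or db/db 1, at 1.32, 1.32 and 1.07. Akr1cl, an aldo-keto reductase, had 17, 17, 9 and 17 counts in db/db, with all 3 WT counts in WT 3.

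Of the cell cycle genes, Top2a, the topoisomerase of dividing cells, had 0, 1, 1 and 1 counts in WT and 36, 8, 5 and 28 in db/db. The libraries db/db 1 and 4 were high, at 10.8 and 10.4 CPM, and db/db 2 and 3 were low, at 2.55 and 2.22 CPM. Top2b, the form of resting cells, was 98.9 ± 12 and 102 ± 4.72 CPM in WT and db/db (SD, n = 4 each; edgeR adjusted p = 0.817). Pclaf, a factor that binds the replication clamp, had 5, 7, 7 and 6 counts in db/db against 4 over WT, and overlaps Trip4 on the other strand.

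The 14 remaining genes include Prr32, which had the highest mean CPM, a scale not corrected for length. Prr32, a proline-rich protein gene on the X chromosome, had 0 counts in every WT library and 40, 63, 31 and 41 in db/db, a level of 15.3 ± 3.44 CPM (SD, n = 4). Its pooled db/db level was 50.4 times the limit of 3 counts over the WT libraries. Gm34302 had 0 in WT and 87, 17, 27 and 14 in db/db, so that 1 library held most of its reads. The long noncoding RNA 1700047G03Rik had 1 count over WT and 46, 30, 15 and 31 in db/db. Prr32 was lowest in db/db 1 by CPM, at 12, where Gm34302 was highest, at 26.2.

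Atcayos, which lies antisense to Nmrk2 and Atcay, had 0, 0, 0 and 4 counts in WT and 46, 18, 26 and 8 in db/db. Nmrk2, a kinase of muscle that makes NAD precursors, had 1 count over WT and 16 over db/db, and reads of the overlapping genes may not be told apart. Peg10, an imprinted gene derived from a retrotransposon, had 26, 5, 6 and 7 counts in db/db against 4 over WT. Its neighbour Sgce, imprinted in the same direction, rose from 8.18 ± 3.61 to 18.2 ± 3.52 CPM (SD, n = 4 each; edgeR adjusted p = 0.00666). Rab11fip4, an adaptor of recycling endosomes, and Cpne9, a copine, were lower in db/db 1 than the mean of the other db/db libraries, at 0.509 and 0.589 of it. Ildr2, Tmem52, Cnksr1, Glipr1, Wscd2, Tent5b and Tmem252 completed the class, with db/db means of 2.55 to 5.83 CPM.

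The db/db libraries did not contribute equally. The level was highest in db/db 1 for 33 genes, in db/db 2 for 5, in db/db 3 for 11 and in db/db 4 for 6. For 60.0% of the 55 genes the highest db/db level was thus in db/db 1, against 28.9% of all 9264 tested genes and 54.3% of the 1445 other genes higher in db/db. The median ratio of db/db 1 to the mean of the other db/db libraries was 1.56, and 16 genes had a ratio of 2 or more, led by Kcnn4 at 4.49, Gm34302 at 3.48, Peg10 at 3.42 and Mettl21c at 2.99. Gldn and Rab11fip4 were at the other end, at 0.492 and 0.509. By class the median ran from 1.11 in the enzymes to 2.36 in the muscle genes.

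**Figure D3:**
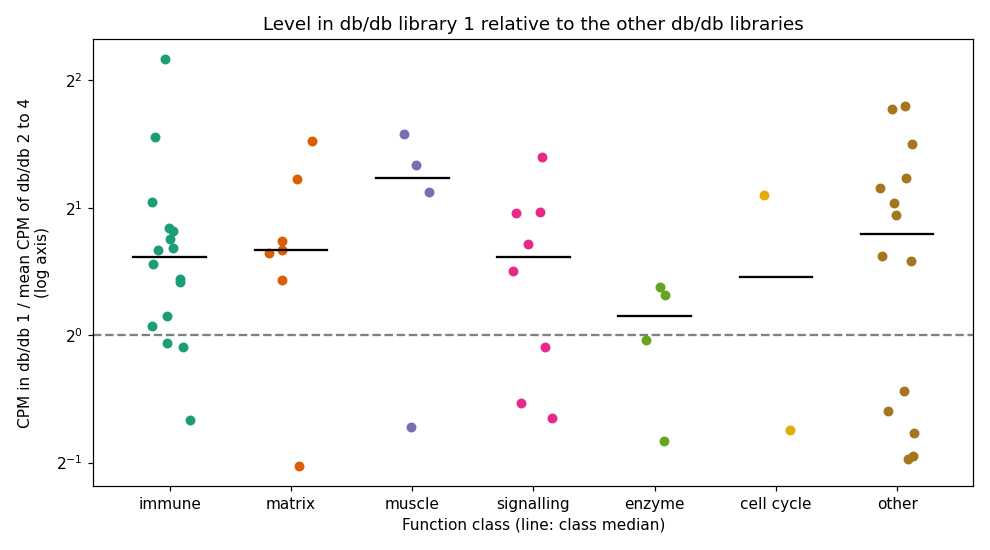
CPM in db/db 1 divided by the mean CPM of db/db 2 to 4 for each of the 55 genes, on a log axis, by class, with the class median as a line. The muscle genes had the highest class median, 2.36, and the enzymes the lowest, 1.11.

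The members were set beside genes of 16 marker lists that are no members. Of 9264 genes tested by edgeR, 15.8% were higher and 11.9% lower in db/db, with a median log2 difference of 0.01. Of the 322 list genes, 171 were tested, 111 were higher and 17 lower, with a median of 1.64. In the macrophage list, 17 of 21 tested genes were higher and 0 lower, with a median of 2.09, and its summed level was 245 to 308 CPM in WT and 997 to 1769 CPM in db/db. Adgre1, a defining macrophage marker, had 2 to 19 counts in WT and 27 to 62 in db/db.

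For lipid-associated macrophages, 14 of 20 tested genes were higher and 1 lower, with a median of 0.77. That list contains Itgax and Atp6v0d2, which were left out of the count, and genes such as Cd36 and Lpl that adipocytes express. Trem2 and Mmp12, which met the count rule and were set aside by name, stayed in the list. Where these were tested, the rule had fixed their direction. The summed level of the list was 8878 to 10750 CPM in WT and 9124 to 10773 CPM in db/db. Lymphocyte, monocyte and neutrophil, and dendritic and mast cell markers were mostly too low to be tested, with 1, 2 and 5 genes tested and 1, 1 and 2 of them higher. In the dendritic and mast cell list 1 tested gene was lower, and the median was 0.12. Its 3 calls became 1 without WT 2 or without db/db 1, and the 1 lymphocyte call became 2 without db/db 3 or with DESeq2. In the lymphocyte list the summed level was 7.22 to 22.4 CPM in WT and 112, 54.7, 21.3 and 49.1 CPM in db/db 1 to 4. The library db/db 1 was thus highest for these markers as well as for the immune class, at 144 CPM, and the part of lymphocytes in that class was not tested.

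Skeletal muscle markers were higher for 23 of 24 tested sarcomere genes, with a median of 2.67, and for 14 of 16 tested muscle genes outside the sarcomere, with a median of 2.47. Sarcomere genes called were 17 with DESeq2, 18 with limma-voom, 18 without db/db 1 and 23 without db/db 2. Fibroblast and matrix genes were higher for 15 of 17 tested, with a median of 1.95, and myofibroblast and smooth muscle genes for 6 of 11. White adipocyte genes were higher for 7 of 10 tested, with a median of 3.19, and Lep was 6.79 to 13.5 CPM in WT and 328 to 557 CPM in db/db. Brown adipocyte genes were lower for 10 of 16 and higher for 1. Of 12 tested endothelial genes 1 was higher and 3 were lower, of 5 neuron and Schwann cell genes 3 were higher, of 9 chemokine and cytokine genes 5 were higher and 1 lower, and the only tested epithelial and cell cycle genes were lower and higher. The cell cycle call was lost without db/db 4, and 2 genes of that list were called without WT 1, WT 2, WT 4 or db/db 3 or with DESeq2. DESeq2 called 10 chemokine and cytokine genes where edgeR called 6.

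**Figure D4:**
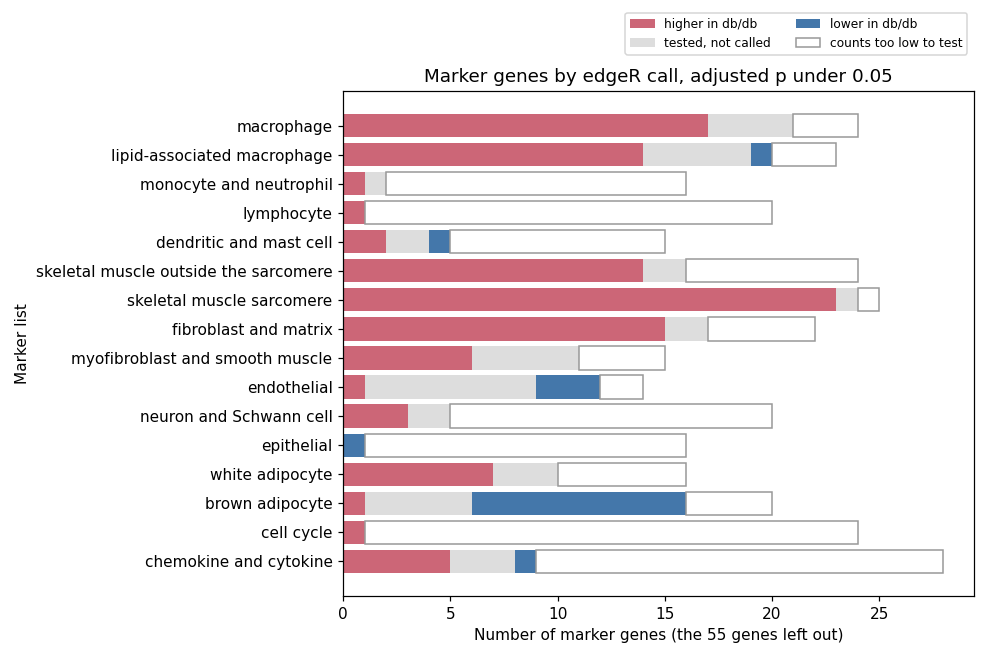
Number of genes in each marker list, without the 55 genes, that were higher, lower or not called in db/db by edgeR at an adjusted p under 0.05, or too low to be tested. Sarcomere, macrophage and fibroblast lists were mostly higher, with 23 of 24, 17 of 21 and 15 of 17 tested genes.

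Within db/db, the class sums were also set against the counts of these lists, which differ between the libraries. Per 1000 counts of the macrophage list, the immune class had 81.6, 78.1, 97.8 and 74.7 counts in db/db 1 to 4. Per 1000 sarcomere counts, the muscle class had 3.53, 5.06, 4.33 and 5.87, so on this scale it was lowest in db/db 1, where its CPM was highest. Per 1000 counts of the fibroblast list, the matrix class had 8.46, 8.38, 10.7 and 7.83. Per 1000 counts of the cell cycle list, the cell cycle class had 222, 113, 158 and 224, resting on only 546 list counts over db/db. WT was left out of this scaling because the rule limits its counts.

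A related gene or binding partner was looked up for the members, and these 44 genes were chosen after the members' counts were known. Of them 37 had more than 4 counts over WT, 23 were tested, 13 were higher and 1 lower, with a median log2 difference of 1.13. The count of 13 includes Lum, a relative of Fmod, at 0.88 ± 0.29 (SE; edgeR adjusted p = 0.032), a call lost without WT 2, WT 3, WT 4 or db/db 1, at 0.84, 0.93, 0.75 and 0.52. The lower one was Rgs2, a relative of Rgs1, at -0.98 ± 0.29 (SE; edgeR adjusted p = 0.0173), a call lost without WT 1 or WT 2, at -0.82 and -0.79. Rgs1 itself had 1 count over WT and 21, 13, 6 and 12 in db/db.

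At the border of the rule, the 5 members with the lowest db/db means were Slamf8, Chodl, Pclaf, Phgdh and Tmem252, at 2.17 to 2.55 CPM. Just outside it, with a WT sum of 5, lay Lilr4b, Fndc1, Asb11, Adamtsl4 and Cacng6, at 9.88, 8.18, 7.55, 5.83 and 4.62 CPM in db/db. Of all genes with a WT sum of 4 or less, 3266 had a count in db/db and 224 averaged 5 counts or more there, so the demand for 5 counts in each library left out most of the latter. Overlap with another annotated gene concerned 22 members. Of these, 5 overlapped a gene with more than 20 counts, namely Dpep2, Hspb2, Cd180, Glipr1 and Pclaf.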

How the data were processed

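Single-end mRNA libraries were made and sequenced by a commercial provider, and the authors' methods state that they trimmed reads with bbduk, aligned them with STAR to mm10 and counted them per gene with HTSeq-count. The submitters' processing notes name Trimmomatic and HISAT2, which the paper's list of resources also holds. They also name DESeq2, which the paper's methods give for differential expression. The sources used here do not settle which tools made the counts. The deposited table holds raw counts per Ensembl gene. Strand use and collapsing of molecular identifiers are not given in the sources used here. The authors' normalized table was not used.

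Gene positions came from GENCODE M21, which matched 31011 of 31053 genes. Genes were filtered by filterByExpr (minimum count 10, minimum total 15), which left 9264, of which 21 were members, and tested with edgeR 4.0.16 (quasi-likelihood F test, R 4.3.3) on genotype alone, with TMM scaling and Benjamini-Hochberg adjustment at 0.05. CPM are counts over the filtered total times the TMM factor. Ratios for WT sums of 1 to 4 have 95% exact intervals for counting error only. For a WT sum of 0, 3 counts over the WT libraries gave the bound. Scripts were tested on simulated data.

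The members, marker lists, classes and related genes were chosen with earlier results of these data known. Named genes are the 20 members with the highest db/db mean, up to 4 per class, those at the border of the rule (5 inside, 5 outside) and the 5 most and 5 least variable in db/db. The remaining members, the related and overlapping genes and the markers named were chosen after their values were seen. Alternatives were other limits of the rule, DESeq2 1.42.0, limma-voom (limma 3.58.1), other scalings and filters, the replicate block and leaving out each library.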

Additional observations from a re-analysis of the deposited data

Results flagged for a closer look

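A library was marked when its gap to the nearest of its group's 4 values made up most of the group's range (Dixon's test at the 95% level). Of 149 sets examined, 40 were marked, where chance gives about 7.45. Most were WT counts of members, 27 of 55, a test poorly suited to counts of 0 to 4.

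In db/db, 8 of 55 members had such a library. In db/db 1, Mettl21c was high at 22.9 CPM against 6.999 to 8.87 in the others, Kcnn4 at 10.8 against 1.91 to 3.10, Ildr2 at 9.93 against 4.14 to 4.84 and C1qtnf7 at 8.12 against 5.09 to 5.32. In db/db 2, Itgax was low at 4.14 CPM and C1rb at 2.23 CPM. In db/db 3, Atp6v0d2 was low at 12.4 CPM against 15.04 to 15.3, and Chodl was high at 3.99 CPM. Among the class sums, signalling genes were high in db/db 1 at 77.3 CPM and enzymes low in db/db 2 at 15.6 CPM.

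In WT, a single library held all counts of a gene: 4 counts for Atcayos, Tmem119, Itgax and Ildr2; 3 for Adam8, Bcat1, Akr1cl and Tent5b; 2 for Nkd1, Slc5a7, Lcn2, Mrgprg, Timp1, Cd180, Sln, Gdf15 and Chodl; and 1 for Atp6v0d2, 1700047G03Rik, Rab11fip4, Cpne9, Tmem52, Rgs1 and Tlr13. For Top2a, C1rb and Lrrc25, 1 library had 0 counts and each of the others 1.

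Of the marker lists, the neuron and Schwann cell sum was low in WT 3 at 159 CPM. In db/db 1 the lipid-associated macrophage sum was high at 10773 CPM and the dendritic and mast cell sum at 194 CPM.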

How the results depend on the processing

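The number of members follows the limits of the rule. With a WT limit of 0, 2 or 8 counts, 7, 27 and 118 genes qualified. With a db/db minimum of 3 or 10 they were 121 and 26, and with counts scaled to the smallest library 35. Leaving out 1 library loosens the rule and gave 60 to 97 genes, including all 55. The largest sets were without WT 1 (88), WT 2 (87), WT 3 (97) or db/db 3 (83). Genes called numbered 2236 to 2483 with 1 library left out. Marker list genes called were 128, 79 with at least 10 counts in every library, where fewer genes are tested (macrophage 11, sarcomere 12, fibroblast 7), and 114 to 134 with 1 library left out. With every counted gene tested, calls became 3 in the lymphocyte and cell cycle lists and 13 in the chemokine and cytokine list. They became 5 in the dendritic and mast cell list and 5 in the neuron and Schwann cell list. With limma-voom the monocyte and neutrophil list had 2 calls, against 1 in the main fit. Summed CPM of the members moved by less than the SD under other scalings.

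Same-numbered libraries did not deviate together (correlations of -0.0781 to 0.049), and the main fit did not pair the samples by number. A small shared effect could be missed by this check. With the replicate block, 2557 genes and 127 list genes were called, and Ccn1 and Bcat2 passed the threshold at 1.28 and -0.84, as they did with every counted gene tested, at 1.24 and -0.87. Lum was not called by DESeq2 or limma-voom, with library totals alone, or without WT 2, 3, 4 or db/db 1, and Rgs2 was not called by DESeq2. A WT sum of 0 allows a level of up to 0.304 CPM over the group, and ratios that rest on 1 to 4 WT counts are imprecise.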
